A study of Rattus norvegicus with 15 samples.

Results

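Livers of sedentary rats refed an energy gap-matched diet were compared with livers of sedentary rats refed ad libitum, across all genes. The samples were chosen by their labels: 5 gap-matched and 5 ad libitum libraries, 10 of the 15 in the series. All came from Wistar rats and were flash frozen when refeeding had lasted 24 hours, which the labels call the start day of weight regain. Neither group had exercised while weight was lost and kept down, so the groups differ, by their labels, in the refeeding diet alone. The labels do not define the gap-matched diet or give the age or sex of the rats, and they do not say that each library came from a separate animal, so p-values cover only the spread among these samples. The other 5 libraries, from rats that had exercised on a treadmill, are not compared here and only help to estimate that spread. The ad libitum group is called sedentary and the other group gap-matched.

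The liver turns a surplus of sugar into fat. Glycolysis yields pyruvate, mitochondria export its carbon as citrate, and cytosolic enzymes build fatty acids from it with NADPH supplied mainly by the pentose phosphate pathway and malic enzyme. Refeeding after a period of energy deficit switches these genes on, through insulin, SREBP-1c (Srebf1) and the carbohydrate-sensing factor ChREBP (Mlxipl), and switches genes of fatty acid oxidation and glucose production off.

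Values are FPKM, fragment counts scaled by transcript length and by library size, as the authors deposited them, and each difference, gap-matched minus sedentary, is in log2(FPKM + 1) units ± its standard error. A library held 11009 to 11365 genes at 1 FPKM or more. The depth relative to the first sedentary library ran from 0.678 to 1 in sedentary and from 0.779 to 0.973 in gap-matched libraries. Absolute depth is unknown. Correlations of log2 values across genes were 0.9694 to 0.9831 among sedentary libraries, 0.9753 to 0.9823 among gap-matched libraries and 0.9648 to 0.9823 between the groups. The summed FPKM of 10 hepatocyte markers lay between 48049 and 61726 in sedentary and between 56712 and 61543 in gap-matched libraries. Albumin is not in this sum, because its value is missing in 11 of the 15 libraries.

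More transcripts were lower than higher in gap-matched livers. Of 11216 genes tested, 342 passed at a limma adjusted p under 0.05, or 3.05% of genes. Of these, 250 genes were lower (2.23%) and 92 were higher (0.820%), and the change exceeded 2-fold for 26 of the lower and 14 of the higher genes. The share of calls that were lower was 73.1%, against 83.9% with libraries scaled to the same sum and 59.7% after median-of-ratios scaling or quantile normalization. The median difference over all genes was −0.03 and stayed between −0.10 and 0.00 under these scalings. The fit was repeated 10 times, each time without 1 library of the compared groups, and 124 genes passed in every one of these leave-one-out fits. Every gap-matched library lay below every sedentary library for 511 genes (4.56%) and above every one for 165 genes (1.47%). Of the 342 genes that passed, 293 had groups without overlap. Separate groups are thus usual for a gene that passed and are no further test of it. In bulk tissue, fewer cells of a type and less RNA per cell cannot be told apart.

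**Figure D1:**
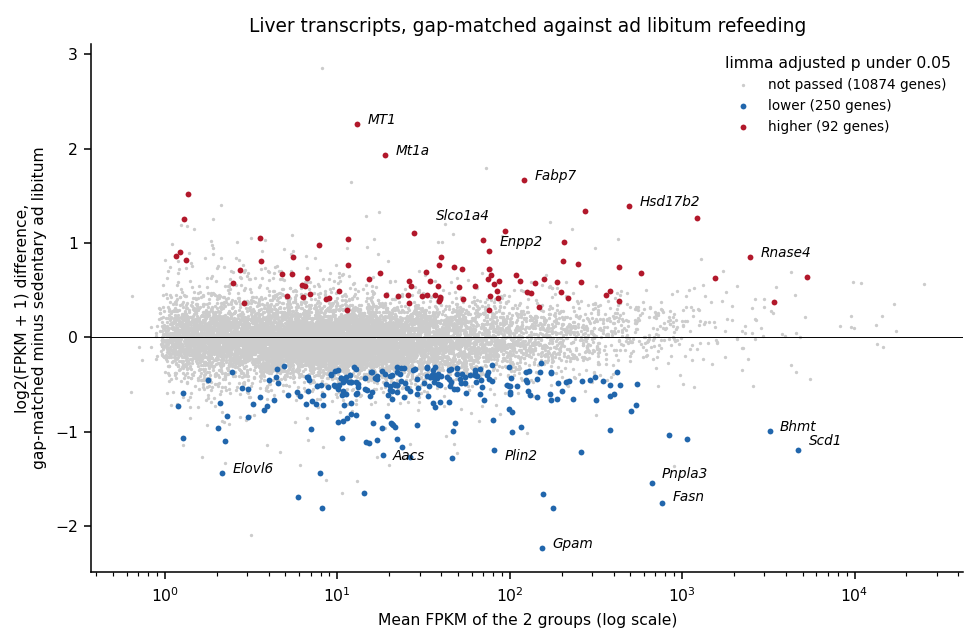
Each point is 1 of the 11216 genes tested, with the mean FPKM of both groups on a log axis and the log2(FPKM + 1) difference, gap-matched minus sedentary, on the other. Blue points are the 250 genes lower and red points the 92 genes higher in gap-matched livers at a limma adjusted p under 0.05, with Gpam at the bottom and the metallothionein MT1 at the top of the coloured points.

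The genes that make fatty acids formed the list with the lowest median. Of 9 tested fatty acid synthesis genes 6 fell and 0 rose, with a median of −0.88 against −0.03 for all genes. A negative difference was found for 6415 of all 11216 genes and for all 9 of these genes. Their summed FPKM lay between 8458 and 11208 in sedentary and between 5212 and 7332 in gap-matched libraries. Thrsp, a small protein that promotes lipogenesis, made up most of that sum, at 6374 ± 713 FPKM of a mean of 9839 in sedentary and 4705 ± 578 FPKM of a mean of 6257 in gap-matched libraries (SD, n = 5), and it overlapped between groups and did not pass (limma adjusted p = 0.101), except with libraries scaled to the same sum (0.0305). Fasn, the synthase that assembles palmitate, stood at 1306, 1374, 1138, 711 and 1324 FPKM in sedentary libraries 1 to 5 and at 249, 432, 493, 428 and 190.4 FPKM in gap-matched libraries 1 to 5. Sedentary library 4 was far below the other sedentary libraries, and still above the highest gap-matched one. Fasn fell by 1.76 ± 0.26 (limma adjusted p = 0.00408).

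The steps that feed the synthase moved with it. Acly, which splits citrate into cytosolic acetyl-CoA, had 1586, 1608, 1585, 1068 and 1297 FPKM in sedentary and 481, 896, 869.5, 758 and 475 FPKM in gap-matched libraries. Acss2, which makes acetyl-CoA from acetate, had 171, 159, 174, 117 and 139 FPKM in sedentary and 73.9, 86.8, 91.6, 95.3 and 49.3 FPKM in gap-matched libraries. For both genes the groups did not overlap, and gap-matched library 5 was the lowest of all. Acly fell by 1.07 ± 0.21 (limma adjusted p = 0.0118) and Acss2 fell by 0.95 ± 0.17 (limma adjusted p = 0.0106). Acaca, the carboxylase that makes malonyl-CoA for synthesis, fell from 103 ± 11.2 to 56.3 ± 12.5 FPKM (SD, n = 5), by 0.88 ± 0.17 (limma adjusted p = 0.0118). Acacb, the mitochondrial carboxylase whose malonyl-CoA restrains fatty acid oxidation, did not pass at −0.46 ± 0.17 (limma adjusted p = 0.157), although every gap-matched library was below every sedentary one. Acacb passed in a fit of the 10 compared libraries alone (limma adjusted p = 0.0254).

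Of 13 tested desaturation and elongation genes 3 fell and 0 rose, with a median of −0.19. Scd1, the stearoyl-CoA desaturase, was one of the most abundant transcripts, at 6718, 6880.3, 6181, 5009 and 7477 FPKM in sedentary and 1909, 3626, 3735, 3728 and 1775 FPKM in gap-matched libraries. Gap-matched libraries 1 and 5 were well below the other 3, and all 5 were below the sedentary range. Scd1 fell by 1.19 ± 0.22 (limma adjusted p = 0.011). Elovl6, the elongase that turns palmitate into stearate, had 4.07, 7.11, 2.39, 1.01 and 3.83 FPKM in sedentary and 0.633, 0.834, 0.915, 0.443 and 0.142 FPKM in gap-matched libraries. The lowest sedentary library, number 4, was just above the highest gap-matched one. At these low levels the scale understates the fold, and Elovl6 fell by 1.43 ± 0.29 (limma adjusted p = 0.0144).

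Of 14 tested regulators of lipogenesis 3 fell and 0 rose, with a median of −0.16. Mlxipl, which encodes ChREBP, had 188, 199.7, 172, 149 and 162 FPKM in sedentary and 108, 119.6, 146, 104 and 87.5 FPKM in gap-matched libraries. The groups did not overlap, and the highest gap-matched library, number 3, came just under the lowest sedentary one, number 4. Mlxipl fell by 0.63 ± 0.13 (limma adjusted p = 0.0144), and its binding partner Mlx fell by 0.33 ± 0.08 (limma adjusted p = 0.0266). Srebf1 fell by 0.67 ± 0.16 (limma adjusted p = 0.0305), with gap-matched library 3, at 384 FPKM, inside the sedentary range. Srebf1 missed the threshold in 7 and Mlx in 5 of the 10 leave-one-out fits, with largest adjusted p-values of 0.0857 and 0.0822. Insig1, which retains SREBP proteins in the endoplasmic reticulum, overlapped widely between groups and did not pass (limma adjusted p = 0.469).

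**Figure D2:**
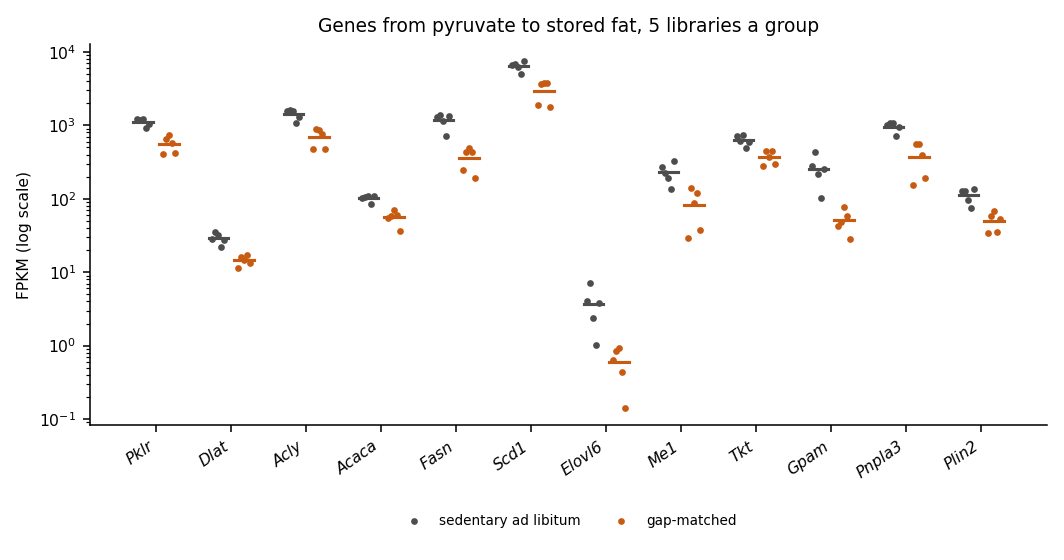
FPKM on a log axis of 12 genes from pyruvate formation to stored fat, with 5 sedentary libraries in grey and 5 gap-matched libraries in orange and a bar at each group mean. Me1 is the single gene of the 12 whose groups overlap, and gap-matched libraries 1 and 5, the first and last orange points of each gene, are the lowest points for Acly, Scd1, Fasn and Pnpla3.

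Storage of fat moved at its first step and on the droplet. Gpam, the acyltransferase that commits fatty acids to glycerolipids, had 279, 429, 215, 102 and 258 FPKM in sedentary and 43.0, 48.7, 77.9, 57.7 and 28.3 FPKM in gap-matched libraries. Sedentary values spread widely, with library 2 high and library 4 low, but even library 4 exceeded every gap-matched value. Gpam fell by 2.24 ± 0.31 (limma adjusted p = 0.00334), the largest fall among the genes that passed, and was the only one of 11 tested glycerolipid assembly genes to pass. Of 15 tested lipid droplet and lipolysis genes 3 fell and 0 rose, with a median of −0.19.

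Pnpla3, a droplet protein with lipase and acyltransferase activity, had 999, 1063, 1062, 714 and 950.3 FPKM in sedentary and 152, 552, 562, 397 and 192 FPKM in gap-matched libraries. Gap-matched libraries 1 and 5 were again the lowest, and the groups did not overlap. Pnpla3 fell by 1.54 ± 0.31 (limma adjusted p = 0.0144). Plin2, the coat protein of small droplets, had 129, 129, 97.5, 74.7 and 136 FPKM in sedentary and 33.8, 57.9, 67.2, 34.8 and 53.9 FPKM in gap-matched libraries and fell by 1.20 ± 0.20 (limma adjusted p = 0.00647). Mgll, the monoacylglycerol lipase, was the third and fell by 0.53 ± 0.14 (limma adjusted p = 0.0457) but missed the threshold in 9 of the 10 leave-one-out fits (largest p 0.12). Tm6sf2, which helps load triglyceride onto lipoproteins, had 73.6, 57.8, 70.9, 48.9 and 63.9 FPKM in sedentary and 27.1, 34.9, 38.0, 37.2 and 27.9 FPKM in gap-matched libraries. It fell by 0.91 ± 0.15 (limma adjusted p = 0.00847) with no overlap, as 1 of 18 tested lipoprotein assembly genes, whose median was 0.09.

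The upstream sequence of Pnpla3 is shown because the CCAAT box was frequent in windows of lipid genes that fell. It is the 250 bases before the transcription start on the plus strand, chr7:117173278-117173527, from RefSeq on GRCr8, with the CCAAT box in capitals. On the strand printed both matches read ATTGG, and neither overlaps the GC box GGGCGG, which also occurs at 2 places.
Pnpla3: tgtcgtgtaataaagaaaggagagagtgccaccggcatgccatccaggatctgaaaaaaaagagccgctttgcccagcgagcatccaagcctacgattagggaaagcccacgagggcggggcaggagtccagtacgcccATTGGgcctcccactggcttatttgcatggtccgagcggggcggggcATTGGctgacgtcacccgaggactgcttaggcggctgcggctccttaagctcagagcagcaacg
The letters CCAAT were searched on both strands in windows from 250 bases before to 50 bases after each start. Of the 16 lipid synthesis, regulator, glycerolipid and droplet genes that fell, 12 matched a window by symbol, and 10 of these 12 held CCAAT, or 83.3%. Fasn, Acaca, Scd1 and Elovl6 fell but had no window, so this share does not cover them. The share was 38.2% of the 7744 tested genes with a window and 38.4% of all 19005 windows. CCAAT was not confined to lipid genes, as it was also in 6 of the 8 windows of heat shock genes that fell, or 75%, and in 45.1% of the 182 windows of all genes that fell. The sterol element TCACNCCAC was in 0 of the 12 windows, against 1.18% of windows of tested genes. At so low a share, 12 windows are too few for 0 matches to tell anything about this element. The other letters searched were in 25% (CACGTG), 75% (GGGCGG), 8.33% (GAANNTTC) and 25% (TGCNCNC) of the 12 windows. Their shares of windows of tested genes were 9.68%, 62.6%, 5.67% and 60.2%. A match describes letters and not a bound site.

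Genes of sugar use fell, down to the pyruvate step. Of 17 tested genes of sugar entry and glycolysis 6 fell and 1 rose, with a median of −0.34. Pklr, the liver pyruvate kinase, had 1238, 1183, 1219.8, 913 and 1046 FPKM in sedentary and 409, 646, 730.4, 581 and 419 FPKM in gap-matched libraries. The groups did not overlap, and gap-matched libraries 1 and 5 were again lowest. Pklr fell by 1.04 ± 0.19 (limma adjusted p = 0.0112). Upstream, Gpi, which interconverts glucose and fructose phosphates, fell from 215 ± 43.3 to 134 ± 17.5 FPKM (SD, n = 5; limma adjusted p = 0.0192). Eno1, the enolase, fell from 232 ± 34.7 to 146 ± 11.6 FPKM (limma adjusted p = 0.0149). Dak, the triokinase that passes fructose carbon into glycolysis, fell from 482 ± 65.1 to 318 ± 38.6 FPKM (limma adjusted p = 0.0187). None of these 4 genes had overlapping groups. Gpi and Dak each missed the threshold in 1 leave-one-out fit, with adjusted p-values of 0.0546 and 0.0512. The gene that rose was Pfkfb2, a kinase that makes the glycolytic activator fructose 2,6-bisphosphate, named after its values were seen. It rose by 0.44 ± 0.11 (limma adjusted p = 0.0414) but missed the threshold in 9 of the 10 leave-one-out fits (largest p 0.105).

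Several genes that supply NADPH fell. Of 10 tested pentose phosphate and NADPH genes 4 fell and 0 rose, with a median of −0.19. Tkt, the transketolase that moves carbon between sugar phosphates, had 726, 606, 749.7, 497 and 587 FPKM in sedentary and 284, 454, 377, 446 and 296 FPKM in gap-matched libraries. Gap-matched libraries 1 and 5 were the lowest, and all 5 were below the sedentary range. Tkt fell by 0.78 ± 0.15 (limma adjusted p = 0.0118). Taldo1, the transaldolase of the later part of the pathway, had 151, 152, 153, 146 and 164 FPKM in sedentary and 108, 89.4, 102, 111 and 105 FPKM in gap-matched libraries. Its groups were tight and far apart, and it fell by 0.57 ± 0.08 (limma adjusted p = 0.00334). Rpia, the isomerase that makes ribose 5-phosphate, fell from 13.2 ± 2.87 to 8.17 ± 1.01 FPKM (SD, n = 5; limma adjusted p = 0.0218) without overlap, and missed the threshold in 5 of the 10 leave-one-out fits (largest p 0.067). Me1, a malic enzyme of the cytosol, had 273, 227, 189.8, 137 and 323 FPKM in sedentary and 29.3, 139.97, 86.5, 119 and 37.7 FPKM in gap-matched libraries. Its groups overlapped by 1 library on each side, sedentary 4 and gap-matched 2, and Me1 fell by 1.66 ± 0.37 (limma adjusted p = 0.0253) but missed the threshold in 5 of the 10 leave-one-out fits (largest p 0.0679).

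Both a core subunit of pyruvate dehydrogenase and a kinase that inhibits it fell. Of 12 tested pyruvate dehydrogenase genes 3 fell and 0 rose, with a median of −0.25. Dlat, the acetyltransferase core of the complex, had 28.6, 34.9, 31.9, 22.0 and 27.1 FPKM in sedentary and 11.3, 16.3, 14.5, 17.0 and 13.2 FPKM in gap-matched libraries, without overlap. It fell by 0.95 ± 0.16 (limma adjusted p = 0.00847), and Pdhx, which anchors another subunit to that core, fell by 0.50 ± 0.11 (limma adjusted p = 0.02). Pdk4, the kinase that inactivates the complex and is known to be high in fasting, had 26.6, 51.7, 36.3, 35.8 and 39.6 FPKM in sedentary and 15.9, 29.4, 19.2, 18.2 and 15.2 FPKM in gap-matched libraries. Gap-matched library 2 overlapped sedentary library 1, and the other gap-matched libraries were lower than every sedentary library. Pdk4 fell by 0.93 ± 0.21 (limma adjusted p = 0.0275), but missed the threshold in 6 of the 10 leave-one-out fits (largest p 0.0819), as Pdhx did in 3 (largest p 0.0616). Of 18 tested tricarboxylic acid cycle genes 2 fell and 0 rose, among them Cs, the citrate synthase, from 36.5 ± 1.12 to 29.3 ± 1.42 FPKM (SD, n = 5; limma adjusted p = 0.0439). Cs did not overlap between groups and missed the threshold in all 10 leave-one-out fits (largest p 0.108).

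Sterol and acetoacetate routes changed in few members. Of 24 tested cholesterol synthesis and uptake genes 3 fell and 0 rose, with a median of −0.27. A negative difference was found for 20 of the 24, against 6415 of all 11216 genes. Acat2, which condenses acetyl-CoA to acetoacetyl-CoA, had 24.6, 27.4, 20.2, 20.5 and 24.5 FPKM in sedentary and 10.1, 11.96, 10.9, 13.3 and 7.11 FPKM in gap-matched libraries. Pmvk, the phosphomevalonate kinase, had 124, 139, 129, 120.0 and 135 FPKM in sedentary and 58.9, 92.0, 80.5, 95.7 and 54.5 FPKM in gap-matched libraries. Neither gene overlapped between groups, and gap-matched library 5 was the lowest for both. Acat2 fell by 1.08 ± 0.20 (limma adjusted p = 0.011), Pmvk fell by 0.79 ± 0.15 (limma adjusted p = 0.0113) and Mvd, a decarboxylase of the same route, fell by 0.90 ± 0.18 (limma adjusted p = 0.0127). Aacs, which activates acetoacetate for lipid synthesis, had 28.4, 33.0, 24.6, 19.5 and 25.2 FPKM in sedentary and 13.5, 12.8, 9.31, 9.69 and 7.19 FPKM in gap-matched libraries. All gap-matched values were under every sedentary value, and Aacs fell by 1.25 ± 0.21 (limma adjusted p = 0.00847).

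Few genes of fasting metabolism passed. Of 20 tested genes of mitochondrial fatty acid oxidation 1 rose and 0 fell, with a median of 0.09, and of 14 gluconeogenesis and 18 peroxisomal and omega oxidation genes 0 passed. At an unadjusted p under 0.05, limma counted 1996 of all 11216 genes. The gene that rose was Acadsb, a dehydrogenase of branched-chain acyl-CoA, from 27.2 ± 2.35 to 42.0 ± 5.55 FPKM (SD, n = 5), with gap-matched library 1 above the 4 others, which were close together. The rise was 0.60 ± 0.10 (limma adjusted p = 0.006). Cpt1a, which admits fatty acids to mitochondria, had 20.5, 19.6, 32.9, 50.9 and 15.8 FPKM in sedentary and 67.9, 45.6, 57.6, 44.9 and 49.0 FPKM in gap-matched libraries. Only sedentary library 4 reached the gap-matched range, and the difference of 1.01 ± 0.27 did not pass (limma adjusted p = 0.0551). Cpt1a passed under 4 other settings, with limma adjusted p-values from 0.0331 to 0.0424, and without sedentary library 4 (0.00993). Pck1, which makes phosphoenolpyruvate for glucose production, had 240.3, 256, 523, 283 and 107 FPKM in sedentary and 458, 672, 401, 302 and 983 FPKM in gap-matched libraries. Values spread over a wide range in both groups, and the difference of 1.04 ± 0.42 did not pass (limma adjusted p = 0.207). The coactivator Ppargc1a differed by −0.05 ± 0.14 and did not pass (limma adjusted p = 0.901).

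Direct insulin targets that are raised in fasting were also variable. Igfbp1, a secreted binding protein that insulin lowers, had 22.7, 71.7, 116, 18.1 and 15.7 FPKM in sedentary and 7.64, 44.6, 10.9, 10.1 and 99.5 FPKM in gap-matched libraries. High and low values occurred in both groups, and the difference did not pass (limma adjusted p = 0.629). Irs2, the insulin receptor substrate, differed by 0.04 ± 0.28 (limma adjusted p = 0.963). Of 22 tested insulin signalling genes and targets 2 fell and 0 rose. Akt1, a kinase downstream of the insulin receptor, had 73.0, 61.2, 60.3, 57.1 and 62.7 FPKM in sedentary and 45.4, 46.4, 45.8, 47.8 and 48.0 FPKM in gap-matched libraries. The gap-matched libraries were close together and under every sedentary library, and Akt1 fell by 0.42 ± 0.09 (limma adjusted p = 0.0181). Sgk2, a kinase related to Akt, had 27.4, 33.3, 37.2, 25.3 and 28.9 FPKM in sedentary and 15.6, 9.76, 19.7, 14.3 and 11.4 FPKM in gap-matched libraries, without overlap. Sgk2 fell by 1.08 ± 0.15 (limma adjusted p = 0.00334).

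**Figure D3:**
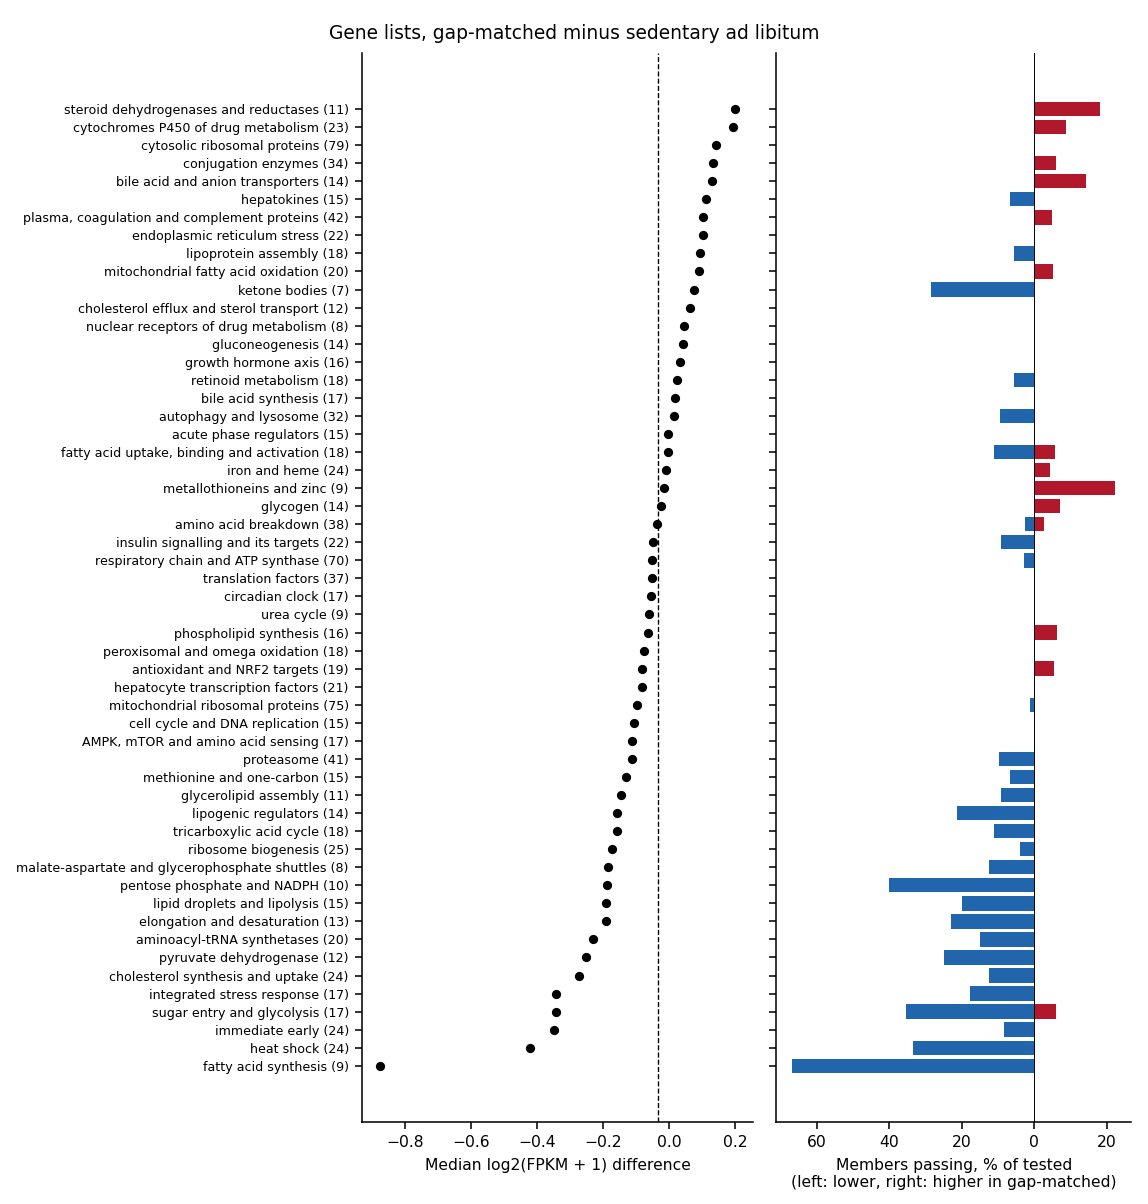
The left panel gives the median log2(FPKM + 1) difference, gap-matched minus sedentary, of each list with at least 7 tested members (number in parentheses), with a dashed line at the median of all genes, −0.03. The right panel gives the members passing at a limma adjusted p under 0.05 as a percentage of those tested, and fatty acid synthesis has both the lowest median and the largest share lower, 6 of 9.

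Chaperones of the heat shock response also had several lower members. Of 24 tested members 8 fell and 0 rose, with a median of −0.42. Against 6415 of all 11216 genes, a negative difference was found for 22 of these 24 members. Their summed FPKM was 2220 to 2843 in sedentary and 1743 to 2113 in gap-matched libraries, without overlap. Stip1, which hands client proteins from Hsp70 to Hsp90, had 62.8, 74.1, 72.7, 52.8 and 72.2 FPKM in sedentary and 48.1, 41.4, 41.7, 42.3 and 46.7 FPKM in gap-matched libraries. Fkbp4, a co-chaperone of steroid receptors, had 109.7, 144, 101, 100.2 and 133 FPKM in sedentary and 77.8, 75.7, 80.5, 83.4 and 87.9 FPKM in gap-matched libraries. Ahsa1, which stimulates the Hsp90 ATPase, had 103, 123, 135, 103 and 131 FPKM in sedentary and 84.5, 71.0, 87.1, 87.1 and 82.7 FPKM in gap-matched libraries. The groups were separate for each of these 3 genes. Stip1 fell by 0.58 ± 0.11 (limma adjusted p = 0.0109), Fkbp4 fell by 0.52 ± 0.10 (limma adjusted p = 0.0127) and Ahsa1 fell by 0.52 ± 0.09 (limma adjusted p = 0.0109). Hsp90ab1, the constitutive Hsp90, fell from 643 ± 75.3 to 456 ± 49.7 FPKM (SD, n = 5; limma adjusted p = 0.0276) but missed the threshold in 6 of the 10 leave-one-out fits (largest p 0.0829).

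The window before Fkbp4 is shown because it holds a match to GAANNTTC, letters of the heat shock element. It is the 250 bases before the start on the minus strand, chr4:163397919-163398168, from RefSeq on GRCr8, with the single match to GAANNTTC in capitals. GAANNTTC reads the same on both strands in its fixed letters. The match overlaps none of the matches to CCAAT or GGGCGG in that window.
Fkbp4: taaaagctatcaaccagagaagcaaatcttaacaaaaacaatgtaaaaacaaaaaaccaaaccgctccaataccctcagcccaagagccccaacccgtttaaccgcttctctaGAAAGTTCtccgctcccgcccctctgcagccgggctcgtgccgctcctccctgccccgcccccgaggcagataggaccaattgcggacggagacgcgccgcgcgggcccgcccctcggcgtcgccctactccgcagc
GAANNTTC was present in the windows of 4 of the 8 heat shock genes that fell, or 50%, against 5.67% of windows of tested genes and 7.76% of all windows.

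Some genes of amino acid supply to translation fell, while none of the endoplasmic reticulum stress list passed. Of 17 tested integrated stress response genes 3 fell and 0 rose, with a median of −0.34. Of 22 tested endoplasmic reticulum stress genes 0 passed, with a median of 0.10. Atf4, the transcription factor that drives the response to amino acid shortage, had 162, 186, 172, 145 and 161 FPKM in sedentary and 118, 125, 128, 121 and 115 FPKM in gap-matched libraries. The groups did not overlap, and Atf4 fell by 0.44 ± 0.08 (limma adjusted p = 0.0118). Of 20 tested aminoacyl-tRNA synthetases, which charge tRNAs with amino acids, 3 fell and 0 rose, with a median of −0.23. All 20 had a negative difference, against 6415 of all 11216 genes. Yars, the tyrosine enzyme, had 49.0, 50.6, 47.8, 39.5 and 56.2 FPKM in sedentary and 24.2, 32.2, 31.0, 30.1 and 31.3 FPKM in gap-matched libraries. Gap-matched library 1 was the lowest, and the groups were separate, and Yars fell by 0.69 ± 0.11 (limma adjusted p = 0.00526). Iars, for isoleucine, fell by 0.55 ± 0.10 (limma adjusted p = 0.0118) and Gars, for glycine, fell by 0.51 ± 0.10 (limma adjusted p = 0.0118). Of 79 tested cytosolic ribosomal protein genes 0 passed, with a median of 0.14.

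Fewer genes rose, and the genes with a symbol and large rises were spread over several roles. Several of the largest rises were in entries without a symbol, whose roles are not known here. ENSRNOG00000049143 rose from 154 to 393 FPKM and ENSRNOG00000000978 from 723 to 1731 FPKM (limma adjusted p = 0.00334 for each). In both, as in Cyp3a23/3a1 below, gap-matched library 5 was the highest and library 3 the lowest of the gap-matched group. MT1, a metallothionein that binds zinc and copper, had 3.39, 3.22, 2.03, 5.11 and 3.81 FPKM in sedentary and 25.1, 10.6, 17.8, 42.4 and 16.3 FPKM in gap-matched libraries. Mt1a, a second metallothionein entry, had 9.35, 4.11, 4.70, 8.70 and 6.16 FPKM in sedentary and 32.4, 20.9, 18.2, 68.8 and 16.4 FPKM in gap-matched libraries. Gap-matched library 4 was the highest in both, and no gap-matched value reached down to the sedentary range. MT1 rose by 2.27 ± 0.33 (limma adjusted p = 0.00346) and Mt1a by 1.93 ± 0.37 (limma adjusted p = 0.0118). Reads can be shared between metallothionein copies, and RefSeq lists Mt1a as a synonym of its Mt1, so the entries may not be separate genes. Mt2A, the third named metallothionein, had 16.0, 10.1, 6.11, 7.92 and 7.21 FPKM in sedentary and 13.7, 15.2, 10.2, 25.4 and 50.4 FPKM in gap-matched libraries, overlapped and did not pass (limma adjusted p = 0.145).

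The window before the RefSeq gene Mt1 is shown because the core letters of the metal response element recur in it. It is the 250 bases before the start on the minus strand, chr19:10832976-10833225, from RefSeq on GRCr8, with each match to the core TGCNCNC on either strand in capitals. The window has 7 matches, 1 of which shares a base with a reverse match to GGGCGG.
Mt1: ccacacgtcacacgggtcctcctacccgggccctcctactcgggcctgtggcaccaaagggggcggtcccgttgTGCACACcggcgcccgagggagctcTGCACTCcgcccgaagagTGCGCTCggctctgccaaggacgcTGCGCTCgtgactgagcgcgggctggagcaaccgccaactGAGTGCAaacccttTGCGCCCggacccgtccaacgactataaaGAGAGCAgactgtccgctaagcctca
The core is common, as at least 1 match was in 53.1% of all windows, in 60.2% of windows of tested genes and in 54.4% of the 57 windows of genes that rose.

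Steroid and xenobiotic genes rose in small numbers. Of 11 tested steroid dehydrogenases and reductases 2 rose and 0 fell, with a median of 0.20. Hsd17b2, which oxidises estradiol and testosterone to less active forms, had 219.8, 233, 339.6, 364 and 204 FPKM in sedentary and 1022, 576, 653, 576 and 726 FPKM in gap-matched libraries. Gap-matched library 1 was the highest of all, and the groups did not overlap. Hsd17b2 rose by 1.39 ± 0.22 (limma adjusted p = 0.00603). Of 23 tested drug-metabolizing cytochromes P450 2 rose and 0 fell, with a median of 0.19. Cyp3a23/3a1, a steroid and drug hydroxylase of the 3A family, had 34.2, 24.8, 27.4, 26.7 and 29.1 FPKM in sedentary and 45.3, 53.2, 40.0, 50.6 and 57.6 FPKM in gap-matched libraries. The groups did not overlap, and the gene rose by 0.77 ± 0.14 (limma adjusted p = 0.0106). Its relative Cyp3a18 rose by 0.78 ± 0.17 (limma adjusted p = 0.0197) but missed the threshold in 4 of the 10 leave-one-out fits (largest p 0.0598), and reads can be shared within this family. Of 34 tested conjugation enzymes 2 rose and 0 fell, including the sulfotransferase Sult1c2 by 0.63 ± 0.13 (limma adjusted p = 0.0144). Sult1c2a, a close relative outside that list, had 33.7, 25.7, 23.1, 26.0 and 32.2 FPKM in sedentary and 52.1, 50.6, 58.6, 46.4 and 48.1 FPKM in gap-matched libraries and rose by 0.85 ± 0.12 (limma adjusted p = 0.00336).

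A few carriers and the secreted enzyme Enpp2 also rose. Of 14 tested bile acid and anion transporters 2 rose and 0 fell, with a median of 0.13. Slco1a4, which takes up bile acids and organic anions from blood, had 70.2, 44.4, 46.5, 82.8 and 53.9 FPKM in sedentary and 127, 117, 113, 139.8 and 143 FPKM in gap-matched libraries. Slc10a1, the main sodium-dependent bile acid uptake carrier, had 289, 335, 339, 309 and 255 FPKM in sedentary and 464, 421, 426, 371 and 408 FPKM in gap-matched libraries. The groups were separate for both carriers. Slco1a4 rose by 1.13 ± 0.17 (limma adjusted p = 0.00461) and Slc10a1 by 0.46 ± 0.10 (limma adjusted p = 0.0196), the latter missing the threshold in 2 of the 10 leave-one-out fits (largest p 0.052). Of 17 tested bile acid synthesis genes 0 passed, and Cyp7a1, the rate-limiting enzyme, differed by −0.45 ± 0.32 (limma adjusted p = 0.483). Enpp2, which encodes autotaxin, a secreted enzyme that makes lysophosphatidic acid, had 50.6, 46.1, 49.8, 75.1 and 43.6 FPKM in sedentary and 102, 95.5, 95.9, 101 and 101 FPKM in gap-matched libraries. The gap-matched libraries were close together and above even sedentary library 4, the highest of its group, and Enpp2 rose by 0.92 ± 0.13 (limma adjusted p = 0.00334).

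Fatty acid handling outside synthesis moved in both directions. Of 18 tested uptake, binding and activation genes 1 rose and 2 fell. Fabp7, the brain-type fatty acid binding protein, had 96.3, 56.7, 38.9, 70.2 and 31.9 FPKM in sedentary and 197, 292, 141, 133 and 157 FPKM in gap-matched libraries. Fabp5, the epidermal type, had 535, 503, 370.2, 374 and 752 FPKM in sedentary and 179.8, 359, 254, 285 and 196 FPKM in gap-matched libraries. The groups were separate for both genes, in opposite directions. Fabp7 rose by 1.67 ± 0.35 (limma adjusted p = 0.0181), and Fabp5 fell by 0.99 ± 0.21 (limma adjusted p = 0.0191) but missed the threshold in 1 of the 10 leave-one-out fits (largest p 0.0505). Acsl5, which activates fatty acids to acyl-CoA, fell by 0.62 ± 0.10 (limma adjusted p = 0.00847). Acnat2, in mouse an enzyme that conjugates acyl-CoA with amino acids, had 139, 76.6, 166, 198 and 116 FPKM in sedentary and 292, 209, 302, 253 and 302 FPKM in gap-matched libraries and rose by 1.02 ± 0.20 (limma adjusted p = 0.0118).

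**Figure D4:**
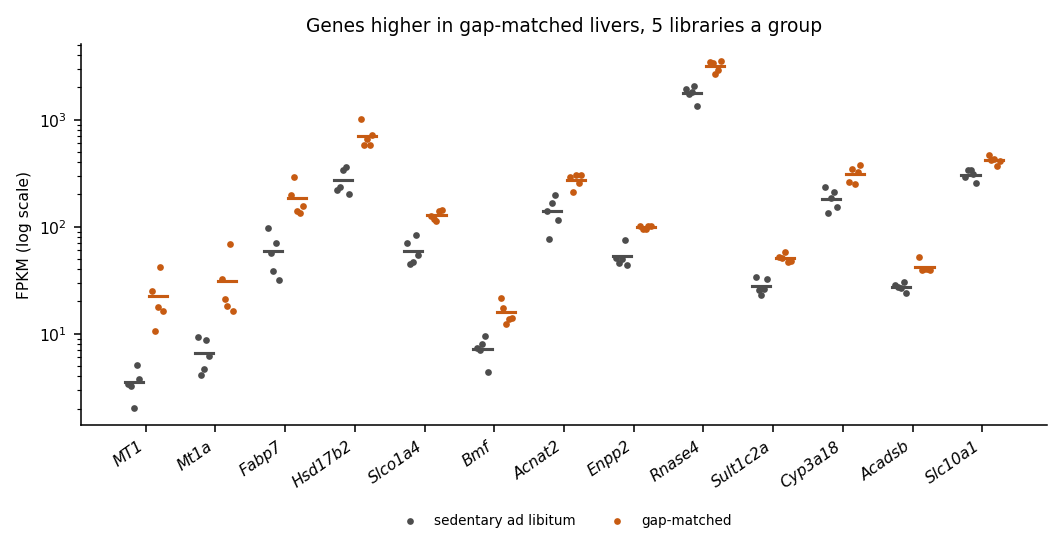
FPKM on a log axis of 13 genes higher in gap-matched livers, with 5 sedentary libraries in grey and 5 gap-matched libraries in orange and a bar at each group mean. The groups do not overlap for any of the 13 genes, which were chosen among genes that passed, and MT1 has the largest ratio of group means.

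Amino acid and one-carbon genes changed singly. Of 38 tested amino acid breakdown genes 1 rose and 1 fell, with a median of −0.04, where 3.05% of all genes passed. Of 15 tested methionine and one-carbon genes 1 fell and 0 rose, with a median of −0.13. Bhmt, which remethylates homocysteine with betaine, had 4099, 4719, 4238, 5008 and 3219 FPKM in sedentary and 2455, 1954, 2801, 2231 and 1428 FPKM in gap-matched libraries. Cdo1, which commits cysteine to taurine synthesis, had 1531, 1278, 1043, 1225 and 1066 FPKM in sedentary and 1885, 2102, 1628, 1878 and 1939 FPKM in gap-matched libraries. Both abundant transcripts separated the groups, in opposite directions. Bhmt fell by 0.99 ± 0.23 (limma adjusted p = 0.0305) and Cdo1 rose by 0.63 ± 0.15 (limma adjusted p = 0.0335). Each missed the threshold in 8 of the 10 leave-one-out fits, with largest adjusted p-values of 0.0829 for Bhmt and 0.0883 for Cdo1. Acmsd, which diverts tryptophan carbon away from NAD synthesis, had 39.7, 64.9, 25.0, 32.0 and 27.3 FPKM in sedentary and 12.02, 9.81, 18.4, 23.2 and 11.1 FPKM in gap-matched libraries. Sedentary library 2 was high, the groups did not overlap, and Acmsd fell by 1.27 ± 0.24 (limma adjusted p = 0.0118). Of 9 tested urea cycle genes 0 passed, with a median of −0.06. Ugp2, which makes UDP-glucose for glycogen, rose from 150.0 ± 28.8 to 224 ± 14.3 FPKM (SD, n = 5; limma adjusted p = 0.0217), the 1 of 14 tested glycogen genes to pass, and it missed the threshold in 2 of the 10 leave-one-out fits (largest p 0.0622).

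The genes with the smallest p-values, Tjp3 and Apitd1, are on none of the gene lists. Tjp3, a scaffold of tight junctions, had 18.2, 24.1, 19.7, 16.5 and 24.0 FPKM in sedentary and 7.96, 9.80, 10.1, 8.50 and 8.32 FPKM in gap-matched libraries. Apitd1, a protein of the centromere and of DNA repair, had 398, 424, 347, 298 and 345 FPKM in sedentary and 130.4, 170.0, 177, 184 and 121 FPKM in gap-matched libraries. Both genes were lower in every gap-matched library by a wide gap. Tjp3 fell by 1.10 ± 0.13 (limma adjusted p = 0.00197) and Apitd1 fell by 1.21 ± 0.14 (limma adjusted p = 0.00197). In RefSeq GRCr8 Apitd1 lies next to Pgd, a dehydrogenase of the pentose phosphate pathway, and whether reads of that gene entered its values was not tested. Rarb, a retinoic acid receptor, had 29.9, 31.8, 28.8, 21.9 and 27.0 FPKM in sedentary and 13.0, 11.9, 13.7, 20.4 and 12.4 FPKM in gap-matched libraries. Gap-matched library 4 came close to the lowest sedentary library, and Rarb fell by 0.93 ± 0.14 (limma adjusted p = 0.00526). Il17rb, a receptor subunit for interleukin 25, fell from 66.2 ± 20.003 to 26.1 ± 6.48 FPKM (SD, n = 5; limma adjusted p = 0.0113). Gdf15, a stress hormone that the liver secretes, fell from 12.003 ± 5.40 to 3.82 ± 2.03 FPKM (SD, n = 5; limma adjusted p = 0.0266) but missed the threshold in 5 of the 10 leave-one-out fits (largest p 0.0679). Fgf21, another such hormone, did not pass (limma adjusted p = 0.34). Jund, an AP-1 transcription factor, fell from 81.6 ± 7.47 to 53.6 ± 5.80 FPKM (SD, n = 5; limma adjusted p = 0.0113), and of 24 tested immediate early genes it was 1 of 2 to fall, with 0 higher. Bmf, a pro-apoptotic protein of the BCL2 family, rose from 7.24 ± 1.87 to 15.8 ± 3.75 FPKM (SD, n = 5; limma adjusted p = 0.0118). Nox4, an NADPH oxidase that makes hydrogen peroxide, rose from 1.94 ± 0.766 to 5.15 ± 1.73 FPKM (SD, n = 5; limma adjusted p = 0.0144), with sedentary library 3 just above gap-matched library 2.

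Markers of other cell types and of liver zones gave few calls. Of the Kupffer, endothelial, stellate, cholangiocyte, neutrophil, lymphocyte, erythroid and adipocyte lists, with 13, 15, 13, 5, 3, 6, 3 and 4 tested members, 0 genes passed. Summed Kupffer markers, those of liver macrophages, ranged from 406 to 677 FPKM in sedentary and from 520.5 to 779.5 FPKM in gap-matched libraries. Summed erythroid markers, those of red blood cells, ranged from 764 to 1615 FPKM in sedentary and from 1442 to 2142 FPKM in gap-matched libraries. All 3 tested members had a positive difference, with a median of 0.46, against 4800 of all 11216 genes with a positive difference. Summed exocrine pancreas markers, of which 1 was tested and 0 passed, ranged from 10.2 to 36.6 FPKM in sedentary and from 23.8 to 54.3 FPKM in gap-matched libraries. Of 14 tested markers of the pericentral zone, around the vein that drains the lobule, 1 rose and 0 fell, with a median of 0.19. Their summed FPKM was 3970.2 to 6737 in sedentary and 7494 to 9504 in gap-matched libraries. The gene that rose was Rnase4, a secreted ribonuclease, at 1934, 1719, 1818, 2077 and 1332 FPKM in sedentary and 3442, 3385, 2691, 2886 and 3516 FPKM in gap-matched libraries. The groups did not overlap, and Rnase4 rose by 0.85 ± 0.14 (limma adjusted p = 0.00774). Rnase4 alone made up 1776 FPKM of the mean pericentral sum of 5742 in sedentary and 3184 FPKM of 8410 in gap-matched libraries. The difference in that sum therefore rests in large part on this gene. Of 17 tested periportal markers 0 passed, with summed FPKM of 9158 to 14733 and 8647 to 11240.4. The part of cell or zone composition in the results above was not tested.

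**Figure D5:**
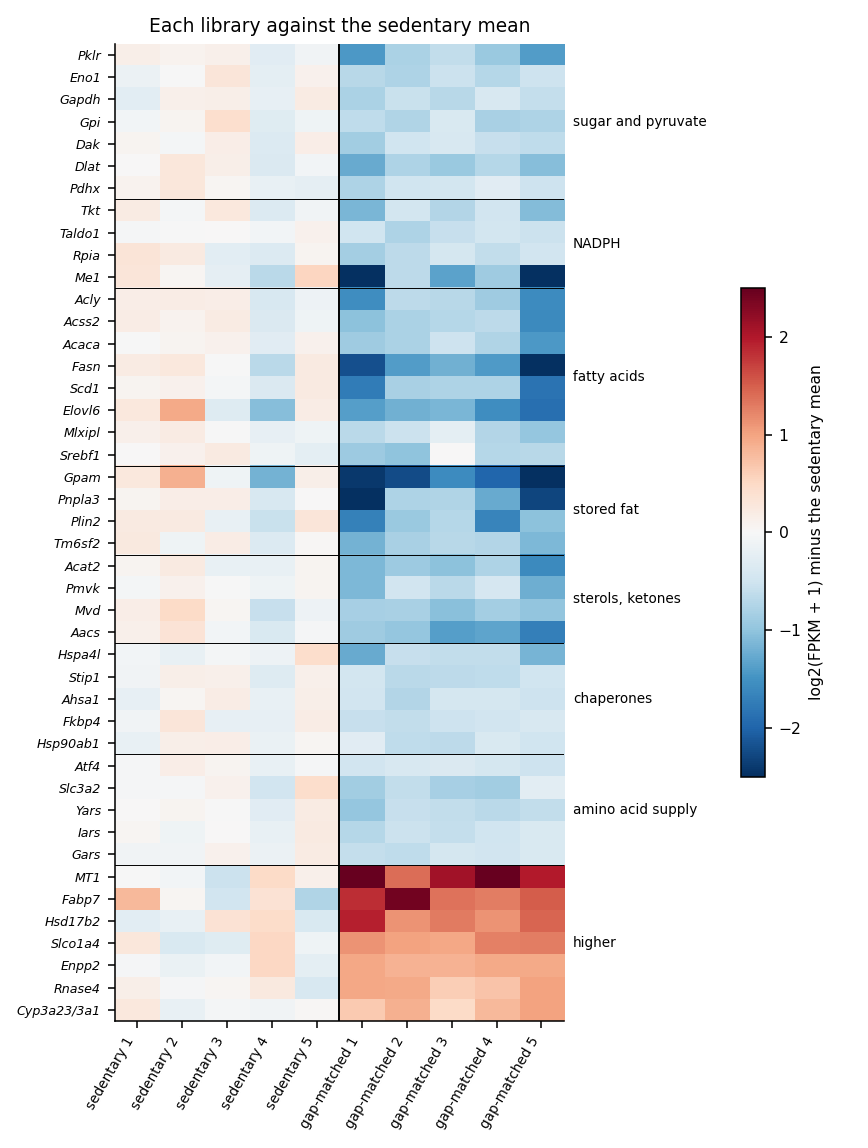
Colour gives the log2(FPKM + 1) value of each library (columns) minus the mean of the 5 sedentary libraries, for 44 genes (rows) in 8 groups, with blue lower, red higher and colours capped at 2.5 in either direction. Gap-matched libraries 1 and 5 are the darkest blue for Me1, Fasn and Pnpla3, whereas the rows of Stip1, Fkbp4 and Ahsa1 are pale blue in all 5 gap-matched libraries.

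Libraries of 1 group differed from each other in several gene lists. Sedentary library 4 was the lowest of its group for 6 of the 9 fatty acid synthesis genes and for 9 of the 17 sugar and glycolysis genes. Gap-matched library 5 was the lowest of its group for 6 of the 9 fatty acid synthesis genes. For the chaperones another library stood lowest, gap-matched library 2, for 12 of 24 genes. Sedentary library 5, with the lowest relative depth (0.678), was the lowest of its group for all 10 hepatocyte markers. The same library was lowest for 30 of 42 plasma, coagulation and complement genes. Among zone and macrophage markers it was lowest for 12 of 17 periportal, 10 of 14 pericentral and 10 of 13 Kupffer markers. It was the highest for 62 of 79 cytosolic ribosomal protein genes. Library 3 was the lowest for 64 of these 79 genes in sedentary and 65 in gap-matched libraries. The counts were 46 and 43 of 70 respiratory chain, 43 and 32 of 75 mitochondrial ribosomal and 22 and 19 of 41 proteasome genes. Whether the shared number 3 pairs these libraries was not settled.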

How the data were processed

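Liver RNA of 15 rat libraries was sequenced by the submitters, and the authors deposited FPKM for each Ensembl gene. The submitters' processing notes name Trimmomatic, Cufflinks and the build Rnor_5.0 with no version, and the aligner and filters are not given in the sources used here. Columns were assigned by the column name in each label. The number 999999999 was read as missing, which left out Alb and Slc27a2. Of 26407 rows, 2 repeated an identifier and were dropped, 5795 had no symbol and 27 symbols had become dates. For 971 entries sharing a symbol, the more abundant one stood for it.

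From the deposited FPKM, log2(FPKM + 1) values were computed for genes averaging 1 FPKM or more over the 15 libraries. Using limma 3.58.1 (R 4.3.3), 1 model with a variance trend on the mean covered all 3 groups. Adjusted p-values are Benjamini-Hochberg values over the 11216 genes and two-sided. The log scale understates differences of low genes. The test was checked on simulated data. Relative depth came from the steps in low FPKM values. Levels at exact 0 can be failed estimates. Figures and tables used Python 3.11.15, numpy 2.4.6, pandas 2.3.3 and matplotlib 3.10.9.

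The members, gene lists and naming rule were chosen with earlier results of these data known. The rule named the 20 largest passing differences in each direction, up to 5 members of smallest p in each list, and a fixed panel, and the text describes a part of these. Pfkfb2 was named after its values were seen. The panel genes Pgd and Angptl8 are not analysed here, and some genes counted in the lists are not reported by name. Alternatives were other pseudocounts, filters, scalings, variance models, library weights, a fit of the compared libraries alone, a threshold of 0.1, a replicate block and leaving out each library. Promoter windows came from RefSeq GRCr8, matched by symbol for 182 of 250 lower and 57 of 92 higher genes.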

Additional observations from a re-analysis of the deposited data

Results flagged for a closer look

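The 86 genes followed, in 2 groups each, gave 172 groups of 5 libraries. In these, 9 single libraries lay far from the rest of their group by Dixon's test. Chance gives about 1 in 20 groups, and 9 of 172 is near that share. A flag alone therefore does not mark a library as unusual, and the flags are given as a description. Sedentary library 4 accounts for 3 of them. Its Fasn value was 711 FPKM, with the other sedentary libraries between 1138 and 1374. Its Pnpla3 value was 714 FPKM, with the others between 950 and 1063. Its Enpp2 value was 75.1 FPKM, with the others between 43.6 and 50.6. For each of these 3 genes the library lay toward the gap-matched group without reaching it. Without sedentary library 4, Fasn, Pnpla3 and Enpp2 still passed.

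Gap-matched library 1 had 51.9 FPKM of Acadsb, with its group otherwise between 39.0 and 39.9, and 24.2 FPKM of Yars, with its group otherwise between 30.1 and 32.2. Gap-matched library 2 had 71.0 FPKM of Ahsa1, with the others between 82.7 and 87.1. Gap-matched library 4 had 20.4 FPKM of Rarb, with the others between 11.9 and 13.7. Gap-matched library 5 had 37.3 FPKM of Acacb, with the others between 45.1 and 48.6. Sedentary library 5 had 5.90 FPKM of Hspa4l, an Hsp110-family chaperone, with the others between 3.47 and 3.91.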

How the results depend on the processing

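The count of 342 genes ranged from 147, without sedentary library 2, to 357, without gap-matched library 3, when 1 library was left out. The count also moved by over 1.5 times without sedentary library 3 (186) or 5 (178) and without gap-matched library 1 (202), 2 (192), 4 (220) or 5 (213). Genes higher in gap-matched livers ranged from 41 to 103 and genes lower from 106 to 265 in these fits. At an adjusted p under 0.1, limma counted 653 genes, 182 higher and 471 lower. Pseudocounts, filters, scalings, variance models, library weights and a fit of the compared libraries alone left all 3 counts within 1.5 times of the values reported, between 273 and 486 genes in all. The lowest, 273, came from the compared libraries alone, where 244 of the 342 passed, Acacb passed as well, and Me1 (limma adjusted p = 0.0582), Srebf1 (0.0684), Slc40a1 (0.0556) and Fgg (0.0745) did not pass. Whether the replicate numbers pair the libraries was not settled. Same-numbered libraries deviated together with correlations of −0.0845 to 0.187, and the same-numbered gap-matched library was the best match for numbers 2 and 3 only. With the replicate number as a block, 201 genes passed, 60 higher and 141 lower, and 189 of them were among the 342, while Cpt1a passed there as well (limma adjusted p = 0.0394). Of the 86 genes followed through the alternatives, 75 had passed, none of these 75 changed direction under any alternative, and 52 of them passed in each of the 10 fits without 1 library. Because absolute depth is unknown, no counting interval can be given, and differences of genes near 1 FPKM are the least certain.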

Other observations

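Protein turnover and iron genes, not described above, gave small counts. Of 41 tested proteasome genes 4 fell and 0 rose, with a median of −0.11. Psmd3, a subunit of the regulatory lid, had 83.9, 81.0, 96.1, 86.9 and 88.7 FPKM in sedentary and 70.3, 58.0, 63.9, 67.4 and 61.7 FPKM in gap-matched libraries. The groups did not overlap, and Psmd3 fell by 0.44 ± 0.08 (limma adjusted p = 0.0118). Of 32 tested autophagy and lysosome genes 3 fell and 0 rose, and Ulk1, the kinase that starts autophagy, fell by 0.61 ± 0.13 (limma adjusted p = 0.0196) but missed the threshold in 3 of the 10 leave-one-out fits (largest p 0.0594). Slc40a1, the iron exporter ferroportin, rose by 0.43 ± 0.10 (limma adjusted p = 0.0246), as 1 of 24 tested iron and heme genes, and missed the threshold in 4 of these fits (largest p 0.0612). Of 42 tested plasma, coagulation and complement genes 2 rose and 0 fell, among them Fgg, the fibrinogen gamma chain, by 0.38 ± 0.10 (limma adjusted p = 0.0488). Fgg missed the threshold in 8 of these fits (largest p 0.11). Of 17 tested circadian clock, 15 acute phase and 21 hepatocyte transcription factor genes, 0 passed.

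A gap in the table touches several pathways. By symbol match to RefSeq GRCr8, 483 of 545 genes of chromosome X, or 88.6%, were listed at 0 in all 15 libraries, against 1929 of 14890 autosomal genes, or 13%. Genes listed at 0 include the glycolytic Pgk1, the pyruvate dehydrogenase subunit Pdha1, the urea cycle gene Otc, the lipogenic Mid1ip1 and the sterol gene Ebp on chromosome X, and Gpd1 and Elovl3 on autosomes. Nsdhl is an X-linked gene with values above 0. The list counts given for these pathways therefore leave such members out. All mitochondrially encoded transcripts in the table were listed at 0 as well. In RefSeq GRCr8 the gene next to Pgd, the pentose phosphate dehydrogenase that is not analysed here, is Cenps, with Apitd1 as a synonym. Whether Apitd1 values hold reads of its neighbour was not tested.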
